A study of Mus musculus with 16 samples.

Results

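The enzymes described here belong to 2 linked routes of mitochondrial energy metabolism, and they make up 35 of the 21368 genes that the arrays name. Of these genes 17 encode enzymes of the tricarboxylic acid (TCA) cycle and its malate shuttle, and 18 encode enzymes of fatty acid oxidation. They were chosen by name and not by any measured value. Their probes were found through the RefSeq accession printed with each spot, and the brightest probe stood for a gene that had several. All 35 genes were measured, and all 35 were well above background on each of the 16 arrays, so no filter on dim signals removed a member.

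The arrays came from primary cultures of the cerebral cortex of C57BL/6 mice, 4 arrays in each of 4 groups. Neurons were grown from cortices of embryonic day 16 and used after 14 days in vitro. They received phosphate-buffered saline (neuron control) or 1 nM recombinant secreted Klotho (neuron Klotho) for 24 h. Astrocytes received the same saline (astrocyte control) or the same dose of Klotho (astrocyte Klotho) for 24 h. The astrocytes came from pups at postnatal days 0 to 5 and were purified by shaking the flasks for 15 h, to more than 98% per the growth protocol, while the stage label of the astrocyte samples reads embryonic day 16. The labels name no genetic change in any group. The astrocytes grew in medium with serum and the neurons in Neurobasal medium with a supplement, so medium, age and cell type go together. Secreted Klotho is the shed form of a membrane protein that serves as co-receptor of FGF23, and the series title asks about its effect on how astrocytes use glucose. Nothing in the labels tells whether replicates were separate cultures, so the p-values speak only of the spread among these arrays, part of which may be technical.

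Fatty acids enter mitochondria as carnitine esters, through an outer membrane transferase, a translocase and an inner transferase. Inside, a spiral of dehydrogenation, hydration, a further dehydrogenation and thiolysis shortens the chain and yields acetyl-CoA, and the electrons of its opening step pass through the electron transfer flavoprotein to the respiratory chain. The TCA cycle oxidises acetyl-CoA, from fatty acids or from glucose by way of pyruvate, and shares succinate dehydrogenase with the respiratory chain. In brain, fatty acid oxidation is attributed mostly to astrocytes, whereas neurons are known to rely on the oxidation of glucose, lactate and ketone bodies.

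Signals well above background covered 57.5 to 67.3% of the spots per array. Pairs of arrays from the same group correlated at 0.950 to 0.993, over the brightest probe of each feature well above background on any array. The neuron arrays lay on slide 1, with the 4 controls on its upper row of arrays (row 1) and the 4 Klotho arrays on its lower row (row 2), so for neurons the treatment cannot be told apart from the array row. By their scanner files, the astrocyte controls lay on slide 2 and the astrocyte Klotho arrays on slide 3, each with replicates 1 and 2 on row 1 and replicates 3 and 4 on row 2. The deposited value table assigns 4 of these 8 astrocyte arrays to the other treatment, and the scanner files were followed unless stated. Cell type and slide cannot be told apart in any comparison of astrocytes with neurons.

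The cultures carried the markers of their labels. The summed signal of 11 neuron markers, in multiples of the array's 75th percentile, was 413 to 534 on neuron control arrays and 30.2 to 102 on astrocyte control arrays. Nefl and Slc17a7 were above background on no astrocyte array. Of the neuron markers 10 of 11 were called lower in astrocytes in both treatments. The sum of 11 astrocyte markers was 333 to 549 on astrocyte control arrays and 143 to 219 on neuron control arrays. Of these 11, 8 were called higher in astrocytes in control and 9 in Klotho cultures, and 1 had the other sign in each. All 11 astrocyte markers were above background on every neuron array. In both treatments 9 of 10 microglia markers and 5 of 7 markers of meningeal fibroblasts were also called higher in the astrocyte cultures. Their summed signals were 124 to 229 against 33.2 to 38.1 (microglia) and 18.2 to 26.0 against 11.4 to 14.6 (fibroblasts) in control cultures. Of the fibroblast markers 2 were called lower in control and 1 in Klotho cultures. Of all features 22.3% were called higher and 30.9% lower in control cultures, and 27.6% and 36.2% in Klotho cultures. Oligodendrocyte lineage markers were called lower in astrocytes, 6 of 11 in control and 9 of 11 in Klotho cultures (medians -1.71 and -1.66). In each treatment 1 of the 11 was called higher. Their sums were 91.8 to 157 on neuron control and 39.0 to 131 on astrocyte control arrays. P2ry12 was above background on no neuron Klotho array and Lum on no astrocyte control array. The part of these cells in the results below was not tested, and in bulk samples fewer cells of a type and less RNA per cell cannot be told apart.

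**Figure D1:**
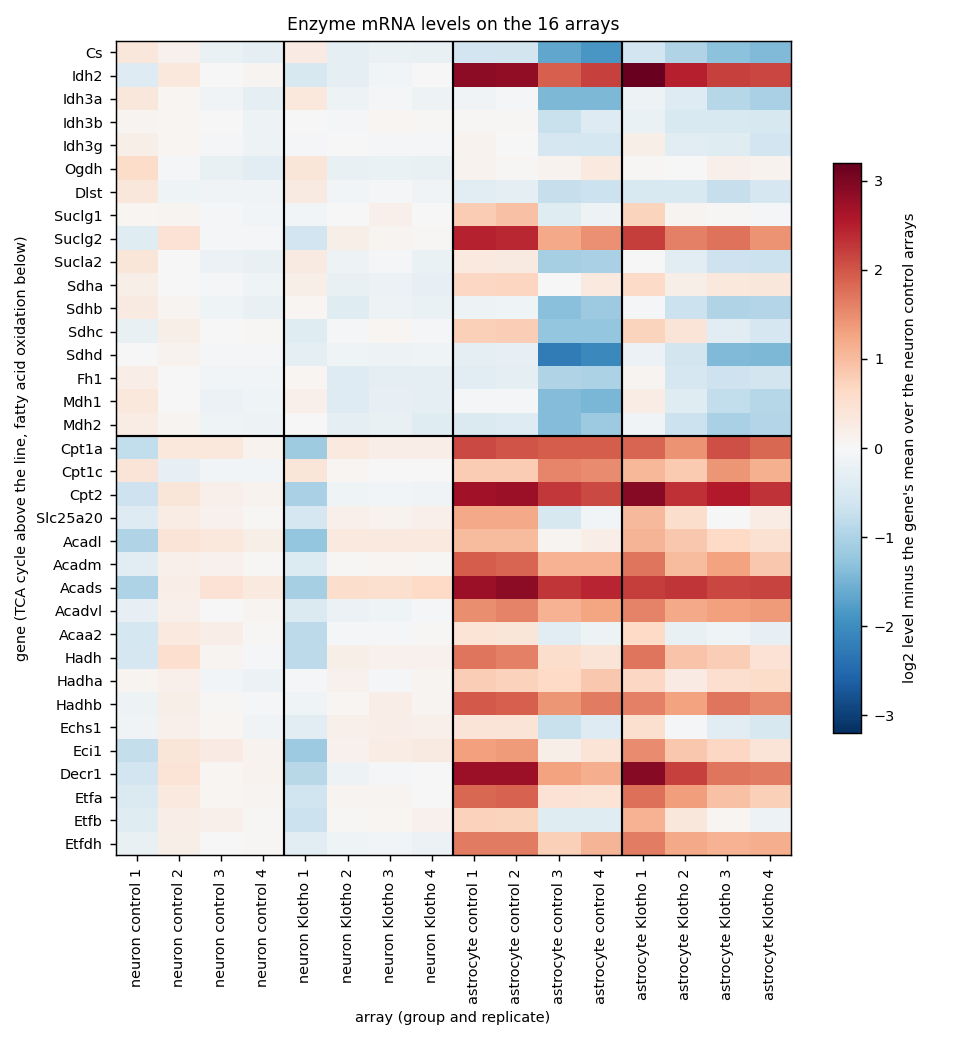
Level of each of the 35 enzymes (rows, the 17 TCA genes above the line and the 18 of fatty acid oxidation below) on each of the 16 arrays (columns), in log2 units relative to the gene's mean over the 4 neuron control arrays. Most fatty acid oxidation genes are higher on the 8 astrocyte arrays, and within the astrocytes the TCA genes are lower on replicates 3 and 4 than on replicates 1 and 2.

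Fatty acid oxidation genes were higher in astrocytes than in neurons, while the TCA genes split. In control cultures 14 of the 35 enzymes were called higher in astrocytes and 3 lower, and 18 did not pass the test (limma, adjusted p under 0.05 over 25994 features). Among all features tested, 22.3% were called higher and 30.9% lower. Fatty acid oxidation gave 12 of the 14 higher genes and none (0) of the lower ones at that threshold. Its median change over 18 genes was 1.16 (log2, astrocytes minus neurons). The 17 TCA genes gave 2 higher and 3 lower calls and a median of -0.38, against a median of -0.22 over all features. At an unadjusted p under 0.05 the members numbered 20 of 35, beside 58.8% of all features. The arrays of the groups did not overlap for 13 members that were higher and 5 that were lower, beside 22.5% and 32.1% of all features.

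A level is given throughout as log2 signal minus the 75th percentile of the array, so a gene at 0 is brighter than 75% of the probes on its array. Levels are compared between arrays for 1 gene, since probes differ in brightness for reasons of their own sequence. Changes are differences of such levels.

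The carnitine shuttle was the step with the largest median difference in control cultures, 1.59. Cpt1a encodes the outer membrane palmitoyltransferase that controls entry of long-chain acyl groups. Its level was 1.14, 2.27, 2.26 and 2.05 on the neuron control arrays and 4.05, 3.94, 3.85 and 3.87 on the astrocyte control arrays. The groups did not overlap, and Cpt1a was 3.99-fold higher in astrocytes (log2 change 2.00, SE 0.27, limma adjusted p = 0.00025). Cpt2, the inner membrane transferase that returns the acyl group to coenzyme A, read -0.10, 0.94, 0.73 and 0.66 in neurons and 3.25, 3.30, 2.82 and 2.68 in astrocytes. All astrocyte values lay above all neuron values, with a 5.48-fold difference (log2 change 2.45, SE 0.27, limma adjusted p = 6.68e-05). Cpt1c, a brain isoform that resides in the endoplasmic reticulum and has little transferase activity, was also higher in astrocytes, by 1.17 (SE 0.26, limma adjusted p = 0.0046). The translocase Slc25a20, which carries acylcarnitines across the inner membrane, differed by 0.46 (SE 0.42) with overlapping arrays and was not called. Within array row 1 alone (2 astrocyte and 4 neuron control arrays) it was called higher, at 1.22 (limma adjusted p = 0.0020). Within array row 2 of the Klotho cultures it was not called, at 0.13.

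The acyl-CoA dehydrogenases, which open each turn of the spiral and differ in the chain length they accept, followed the same direction. The short-chain enzyme Acads had the largest change of all members. It read -3.25, -2.06, -1.79 and -1.94 on the neuron control arrays and 0.48, 0.61, 0.02 and 0.19 on the astrocyte control arrays, a 5.99-fold difference (log2 change 2.58, SE 0.33, limma adjusted p = 0.000179). The groups did not overlap, and within the neurons array 1 lay well below the other 3. The medium-chain enzyme Acadm was higher by 1.51 (SE 0.26) and the very-long-chain enzyme Acadvl by 1.36 (SE 0.19), both called. The long-chain enzyme Acadl differed by 0.58 (SE 0.37, limma adjusted p = 0.216) and was not called.

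Hadha and Hadhb encode the alpha and beta subunits of the trifunctional protein, which carries out the last 3 reactions on long chains. Hadhb was higher by 1.74 (SE 0.19) and Hadha by 0.75 (SE 0.17), both called and both without overlap between the groups. Hadh, the dehydrogenase for shorter chains, was higher by 1.07 (SE 0.37, limma adjusted p = 0.0352), with overlapping arrays. Its call was lost without neuron control 1, 3 or 4 or without astrocyte control 1 or 2, under median scaling, and over the arrays with the same treatment in both sources. The hydratase Echs1 (-0.07, SE 0.29) and the thiolase Acaa2 (0.08, SE 0.28) were not called, although Echs1 was called higher within array row 1, at 0.42 (limma adjusted p = 0.030).

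Decr1, the reductase that unsaturated acids need in addition, had levels of 1.99, 3.03, 2.67 and 2.71 in neuron controls and 5.35, 5.34, 3.90 and 3.77 in astrocyte controls. The groups did not overlap, although astrocyte arrays 3 and 4 lay well below 1 and 2, and the change was 1.99 (SE 0.43, limma adjusted p = 0.0041). The isomerase Eci1, which shifts double bonds for the same purpose, differed by 0.82 (SE 0.36) and was not called, but was within array row 1, at 1.33 (limma adjusted p = 0.011). Of the electron transfer flavoprotein and its dehydrogenase, Etfdh was higher by 1.29 (SE 0.25) and Etfa by 1.15 (SE 0.39), both called, and Etfb (0.17, SE 0.33) was not, although it was within array row 1, at 0.73 (limma adjusted p = 0.015). The call of Etfa was lost in the same settings as that of Hadh, and with the mean of its probes.

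Among the TCA genes Idh2 stood with the fatty acid genes. It encodes the NADP-dependent mitochondrial isocitrate dehydrogenase, which makes NADPH and lies beside the NAD-dependent enzyme of the cycle. Idh2 read 3.46, 4.21, 3.87 and 3.95 in neuron controls and 6.73, 6.71, 5.79 and 6.07 in astrocyte controls, a 5.47-fold difference without overlap (log2 change 2.45, SE 0.28, limma adjusted p = 7.5e-05). The NAD-dependent subunits Idh3a (-0.75, SE 0.38), Idh3b (-0.26, SE 0.22) and Idh3g (-0.25, SE 0.22) were not called. Suclg2, the GTP-specific beta subunit of succinyl-CoA ligase, read -0.83, 0.02, -0.48 and -0.48 in neurons and 2.03, 1.97, 0.77 and 1.02 in astrocytes. Its groups did not overlap, and the change was 1.89 (SE 0.34, limma adjusted p = 0.0014). The ATP-specific beta subunit Sucla2 (-0.38, SE 0.37) and the shared alpha subunit Suclg1 (0.30, SE 0.32) were not called. Suclg1 was called higher within array row 1, at 0.87 (limma adjusted p = 0.0010).

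The called TCA genes on the neuron side were citrate synthase, malate dehydrogenase and fumarase. Cs, which condenses acetyl-CoA with oxaloacetate, read 6.78, 6.53, 6.20 and 6.10 on neuron control arrays and 5.78, 5.81, 4.73 and 4.53 on astrocyte control arrays (log2 change -1.19, SE 0.34, limma adjusted p = 0.0166). Within array row 1 its change was -0.61. Mdh2, the mitochondrial malate dehydrogenase, read 7.46, 7.31, 7.08 and 7.06 against 6.76, 6.82, 5.84 and 6.07 (log2 change -0.86, SE 0.27, limma adjusted p = 0.0229). Fh1, fumarase, read 4.23, 4.01, 3.93 and 3.93 against 3.67, 3.75, 3.06 and 3.02 (log2 change -0.65, SE 0.23, limma adjusted p = 0.0385). None of the 3 overlapped between the groups, yet in each the gap was narrow beside the spread of the astrocyte arrays. These calls depended on scaling: with arrays centred on the median or quantile normalized, 0 members were called lower. The count of lower calls was 1 without neuron control 1, without neuron control 2 or without astrocyte control 4, and 6 without astrocyte control 2. Within array row 1, with 2 astrocyte and 4 neuron control arrays, 21 members were called higher (16 of fatty acid oxidation) and 2 lower, beside 28.5% and 40.0% of all features.

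The remaining TCA genes were not called in control cultures. Sdhd, an anchor subunit of succinate dehydrogenase, differed by -1.22 (SE 0.47, limma adjusted p = 0.0543; -0.29 within array row 1) and Dlst, the succinyltransferase of the oxoglutarate dehydrogenase complex, by -0.51 (SE 0.21, limma adjusted p = 0.0623), both without overlap. The catalytic subunit Sdha differed by 0.42 (SE 0.21), the iron-sulfur subunit Sdhb by -0.70 (SE 0.32) and the other anchor Sdhc by -0.23 (SE 0.51). Within array row 1 Sdha was called higher, at 0.68 (limma adjusted p = 0.0047), as was Sdhc, at 0.77 (limma adjusted p = 0.0040). Ogdh, the decarboxylating subunit of the oxoglutarate complex, differed by 0.15 (SE 0.24), and the cytosolic malate dehydrogenase Mdh1 by -0.74 (SE 0.38). The large errors of Sdhc, Sdhd and Mdh1 sit beside a wide spread of the astrocyte control arrays, which is described with the array rows.

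**Figure D2:**
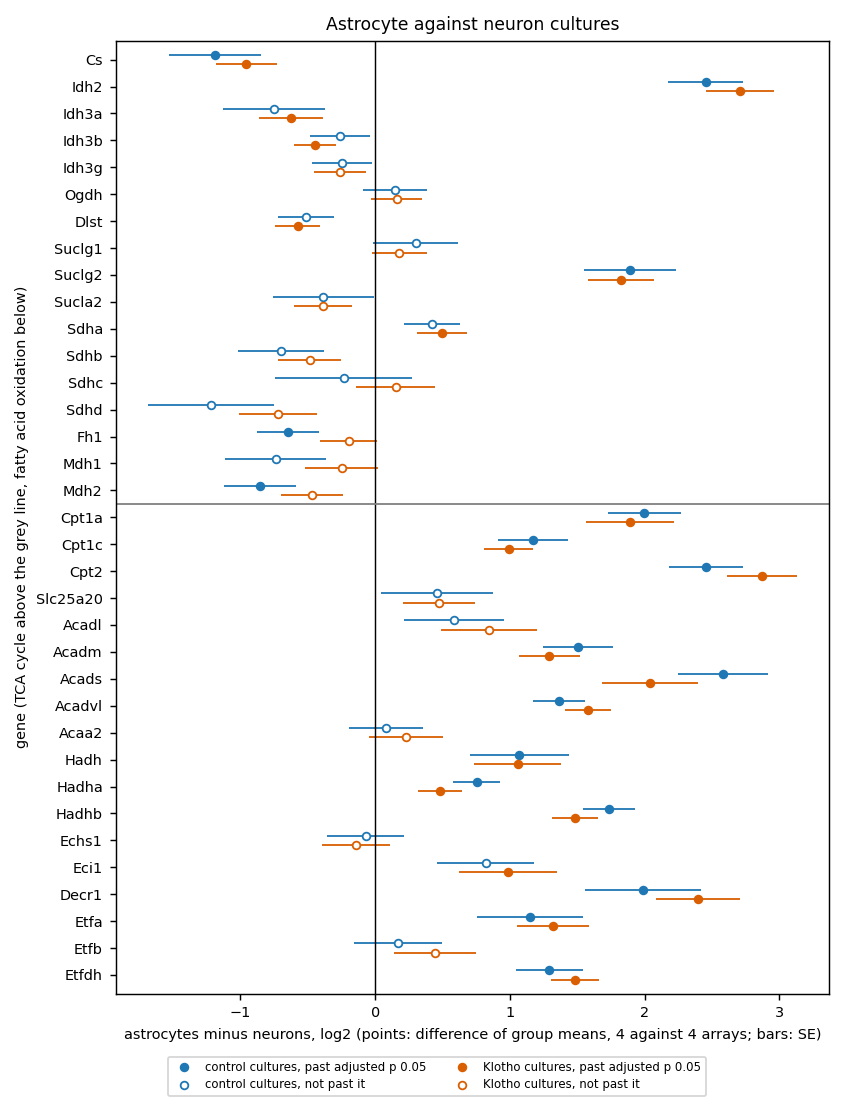
Change of each enzyme from neurons to astrocytes in log2 units with its standard error, in control cultures and in Klotho cultures (4 arrays a group), with called genes drawn filled. Cpt2, Idh2, Acads, Decr1, Cpt1a and Suclg2 lie furthest to the right in both treatments, and Cs is filled left of 0 in both.

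The Klotho cultures gave a comparison of the cell types on arrays of their own. There 16 members were called higher in astrocytes and 4 lower (limma, 24180 features), beside 27.6% and 36.2% of all features. At an unadjusted p under 0.05 they were 22 of 35, beside 67.3%. Arrays did not overlap for 16 members that were higher and 3 that were lower, beside 26.0% and 33.4%. Fatty acid oxidation again gave 13 higher and 0 lower calls of 18, with a median of 1.18, and the TCA genes 3 higher and 4 lower of 17.

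All 14 genes called higher in the control cultures were called higher in the Klotho cultures too. Eci1 (0.99, SE 0.36) and Sdha (0.50, SE 0.18) passed the threshold in the Klotho cultures and not in the control cultures. The difference between these comparisons equals the interaction given below, in which neither gene was called. Cs was the 1 gene called lower in astrocytes in both, at -0.96 in the Klotho cultures (SE 0.23, limma adjusted p = 0.00454). The direction matched in 34 of 35 members, and the same agreement over all features was not counted. The comparisons share no array, but all their neuron arrays lay on slide 1. Same-numbered arrays also had correlated deviations between treatments, as given with the processing. Cpt2 had the largest change here: 0.42, 0.48 and 0.44 on neuron Klotho arrays 2 to 4 with -0.49 on array 1, against 3.48, 2.89, 3.09 and 2.87 on astrocyte Klotho arrays, which is 7.31-fold (log2 change 2.87, SE 0.26, limma adjusted p = 7.71e-06). The other genes with large differences in control cultures differed here by 2.71 (Idh2), 2.40 (Decr1), 2.04 (Acads), 1.89 (Cpt1a) and 1.83 (Suclg2), and all 5 were called.

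In the Klotho cultures Idh3a (-0.62, SE 0.24), Dlst (-0.58, SE 0.17) and Idh3b (-0.45, SE 0.16) were also called lower in astrocytes than in neurons. These counts moved with single arrays: 2 members were called lower without neuron Klotho 2, 3 or 4 or astrocyte Klotho 3 or 4, and 9 without astrocyte Klotho 1. Cs and Dlst kept their calls under all 21 alternatives tried, Idh3a under 10 and Idh3b under 9. Of the genes called higher, Hadha kept its call under 13, Eci1 under 12 and Sdha under 11 of the 21. Within array row 2, with 2 astrocyte and 4 neuron Klotho arrays, 14 members were called higher and 10 lower, beside 31.3% and 39.2% of all features, and all 10 were TCA genes. Hadh (0.71) and Eci1 (0.66), called over all Klotho arrays, were not called there. Slc25a20 (0.13), Etfb (0.05), Echs1 (-0.47), Suclg1 (-0.02) and Sdhc (-0.36), called higher within row 1 of the control cultures, were not called within row 2 either. Sdha was called higher there, at 0.47 (limma adjusted p = 0.046). With all 8 astrocyte against all 8 neuron arrays, an alternative added after the data were seen, 17 members were called higher and 8 lower, beside 30.5% and 41.7% of all features. In that fit 26 of 35 passed an unadjusted p under 0.05, beside 74.1%, and arrays did not overlap for 13 higher and 2 lower members, beside 19.7% and 25.7%.

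Promoter sequences of the members were searched for motifs of factors tied to mitochondrial genes. RefSeq promoters (assembly GRCm38.p6, 250 bases before to 50 after the start) were found for 31 of the 35 genes, with 36 promoters in all, and not for Idh3a, Sdhc, Acaa2 and Decr1. Hadha and Hadhb, both called higher in astrocytes, are transcribed away from each other from starts 273 bases apart on chromosome 5. A stretch between these starts is shown for Hadhb, and its use by either gene was not tested. The upstream stretches of Cpt2 and Etfdh are shown because they hold searched motifs (in capitals) and both genes were called higher in astrocytes. Each is read on the strand of the named gene and ends just before its start: Hadhb at chr5:30155003-30155252 (plus strand), Cpt2 at chr4:107923590-107923739 (minus strand) and Etfdh at chr3:79628768-79628917 (minus strand).
Hadhb: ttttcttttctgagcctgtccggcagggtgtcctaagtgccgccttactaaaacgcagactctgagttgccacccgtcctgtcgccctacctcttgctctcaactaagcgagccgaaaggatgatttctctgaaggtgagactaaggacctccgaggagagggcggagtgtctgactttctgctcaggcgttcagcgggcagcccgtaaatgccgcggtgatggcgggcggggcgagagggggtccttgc
Cpt2: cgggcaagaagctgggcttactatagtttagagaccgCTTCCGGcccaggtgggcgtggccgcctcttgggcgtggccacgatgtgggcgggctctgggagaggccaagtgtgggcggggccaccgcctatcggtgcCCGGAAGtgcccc
Etfdh: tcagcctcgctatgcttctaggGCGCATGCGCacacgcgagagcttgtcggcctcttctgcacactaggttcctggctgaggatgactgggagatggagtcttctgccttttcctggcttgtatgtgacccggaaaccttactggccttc

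The capitals in Cpt2 mark the ETS element CCGGAAG, found from position -113 (other strand) and from position -13 (the gene's own strand) relative to the start. The capitals in Etfdh mark the NRF1 element, GCGCA followed by its reverse complement, found from position -128. Motifs were searched on both strands of the whole windows, and of the motifs only that of the estrogen-related receptors and the direct repeat share a run of letters, AGGTCA. The ETS element lay in 7 member promoters (Cpt2, Dlst, Idh3b, Idh3g, Sdhb, Sdhd and Slc25a20) and in 8.86% of all 32851 promoters. The NRF1 element lay only in Etfdh among the members and in 0.971% of all promoters. The element TNAAGGTCA of the estrogen-related receptors lay only in Sdhd and in 1.28% of all, and the direct repeat of AGGTCA with a base N between, read by PPAR and RXR, in no member (0) and in 0.0396% of all. The CCAAT box lay in promoters of 15 member genes and in 37.4% of all promoters. Of the 7 genes with the ETS element 5 belong to the TCA cycle and 2 to fatty acid oxidation, and among them Cpt2 was called higher in astrocytes while Dlst and Idh3b were called lower in the Klotho cultures.

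Klotho was not followed by a called change of any enzyme in neurons. Of the 35 genes 0 were called (limma, 24703 features) and 0 had an unadjusted p under 0.05, whereas 0.0% of all features were called higher, 0.15% lower and 4.3% had an unadjusted p under 0.05. The median change was -0.09 (log2, Klotho minus control), beside -0.03 over all features, with 8 genes positive and 27 negative. That balance turned with the scaling: 27 genes were positive in the deposited value table. The signs depended on single arrays too, with 16 genes positive without neuron Klotho 1.

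Sdhd had the smallest p in neurons. It read 5.14, 5.28, 5.12 and 5.12 on control arrays and 4.85, 5.03, 5.01 and 5.01 on Klotho arrays. It was the 1 member whose groups did not overlap in the lower direction, beside 2.83% of all features, and no member (0) did so in the higher direction, beside 1.38%. The difference was -0.19 (SE 0.09, unadjusted p = 0.0812, limma adjusted p = 0.988). The next genes were Fh1 (-0.23), with 4.23, 4.01, 3.93 and 3.93 against 4.09, 3.62, 3.74 and 3.73, and Mdh2 (-0.23), with 7.46, 7.31, 7.08 and 7.06 against 7.24, 6.92, 6.99 and 6.85. Acadvl (-0.22) read 3.93, 4.35, 4.20 and 4.29 against 3.74, 3.99, 4.04 and 4.12. In these 3 genes the groups overlapped. Of 18 liver markers 15 were tested on the same arrays and 5 were called lower with Klotho. The summed signal of all 18 was 10.2 to 16.3 in controls and 5.97 to 7.16 with Klotho, and its part in these values was not tested.

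In astrocytes, with treatment by scanner file, 0 of 35 enzymes were called (limma, 23562 features), 0 had an unadjusted p under 0.05, and the groups overlapped in every member. Among all features 0.0% were called in either direction, 3.77% had an unadjusted p under 0.05, and 1.1% (higher) and 1.44% (lower) did not overlap. The median change was -0.01 with 16 genes positive and 19 negative. The genes with the smallest p were 4 of fatty acid oxidation. Acads read 0.48, 0.61, 0.02 and 0.19 on control arrays and -0.06, 0.03, -0.11 and -0.10 on Klotho arrays (log2 change -0.38, SE 0.20). Hadha read 1.11, 1.06, 0.97 and 1.19 against 1.00, 0.59, 0.88 and 0.91 (-0.24, SE 0.19). Cpt1a, at 4.05, 3.94, 3.85 and 3.87 against 3.79, 3.37, 3.99 and 3.76, differed by -0.20 (SE 0.20), and Acadm, at 4.93, 4.87, 4.12 and 4.12 against 4.72, 4.01, 4.29 and 3.87, by -0.29 (SE 0.29). Each of these differences was smaller than 2 standard errors.

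The sign of the astrocyte change followed the array row. On row 1 (2 arrays a treatment) 31 of 35 enzymes were lower with Klotho, with a median of -0.21. On row 2 (2 arrays a treatment) 30 were higher, with a median of 0.23. No member was called on either row (0 by limma). Of the members 31 were negative and 4 positive with treatment taken from the deposited values (median -0.11), and over the arrays to which both sources give the same treatment 9 were (median -0.09), with 0 calls in each. Over all astrocyte arrays, with treatment by scanner file, 12 inflammatory genes had a summed signal of 22.8 to 118 in controls and 70.0 to 1586 with Klotho. All 12 were positive with an unadjusted p under 0.05, and 0 were called (limma).

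The difference between the Klotho effects (astrocytes minus neurons, interaction over 16 arrays) was called for 0 of 35 enzymes, and 0 had an unadjusted p under 0.05 (limma, 26109 features). Of all features 0.0804% were called higher, 0.00766% lower and 5.26% had an unadjusted p under 0.05. The median difference was 0.13, with 21 genes positive. The smallest p values belonged to Fh1 (0.45, SE 0.31), Mdh2 (0.39), Cpt2 (0.42) and Hadha (-0.27), all with a limma adjusted p of 0.996.

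**Figure D3:**
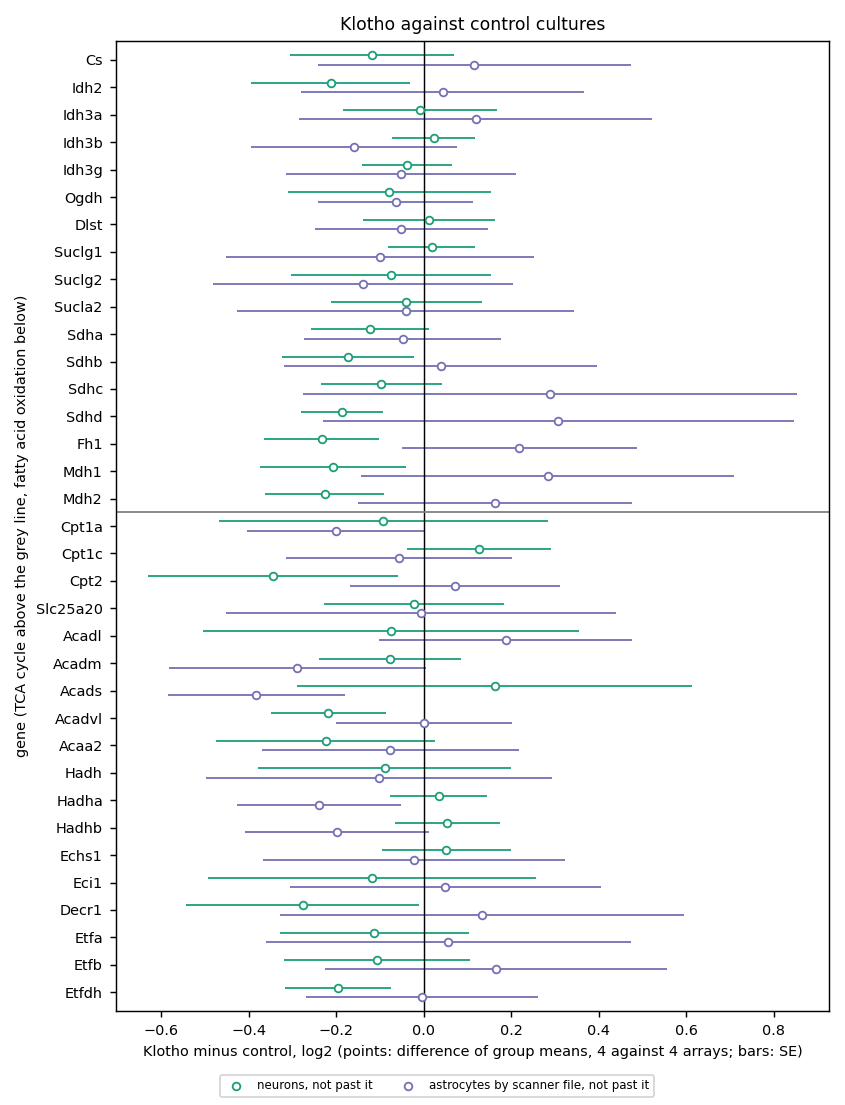
Change of each enzyme with Klotho in log2 units with its standard error, in neurons and in astrocytes by scanner file (4 arrays a group). All changes lie between -0.38 and 0.31 and no gene was called in either cell type.

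Within the astrocytes the enzymes differed by the row of the array on its slide. The comparison of row 2 with row 1 (4 arrays each, slide as a term) called 22 of 35 members lower and 1 higher (limma, 23956 features), beside 25.5% and 21.7% of all features. At an unadjusted p under 0.05 they were 25, beside 55.3%, and arrays did not overlap for 22 members that were lower and 1 that was higher, beside 23.7% and 18.1%. The median change was -0.71, against -0.05 over all features. The TCA genes contributed 13 of 17 and fatty acid oxidation 9 of 18 to the lower calls. Replicates 1 and 2 lay on row 1 and replicates 3 and 4 on row 2, so any difference between these cultures or RNA samples cannot be told apart from the row.

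The anchor subunits of succinate dehydrogenase changed most. Sdhd read 4.85 and 4.89 (slide 2) and 4.98 and 4.57 (slide 3) on row 1, and 2.93, 3.10, 3.75 and 3.72 on row 2 (log2 change -1.45, SE 0.21, limma adjusted p = 0.00358). Sdhc read 4.64, 4.68, 4.61 and 4.29 on row 1 and 2.65, 2.65, 3.53 and 3.34 on row 2 (log2 change -1.51, SE 0.23, limma adjusted p = 0.00359). Neither gene overlapped between the rows. Sdhb, the iron-sulfur subunit, fell by 0.84 (SE 0.19), while the catalytic subunit Sdha (-0.28, SE 0.18) was not called, so the 4 subunits did not move by the same amount.

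Idh3a, the catalytic subunit of the NAD-dependent isocitrate dehydrogenase, read 3.45, 3.53, 3.40 and 3.14 on row 1 and 2.13, 2.11, 2.64 and 2.53 on row 2 (log2 change -1.03, SE 0.18, limma adjusted p = 0.00435). Mdh1 read 5.23, 5.24, 5.53 and 4.91 against 3.89, 3.82, 4.50 and 4.38 (-1.08, SE 0.20). Decr1 read 5.35, 5.34, 5.51 and 4.79 against 3.90, 3.77, 4.32 and 4.26 (-1.18, SE 0.21), and Etfa 5.31, 5.37, 5.25 and 4.83 against 3.94, 3.92, 4.43 and 4.25 (-1.05, SE 0.20). All row 1 values of these 4 genes lay above all row 2 values. The other called decreases ran from -0.51 (Etfdh) to -1.10 (Slc25a20) and included Cs (-0.87), Idh2 (-0.73), Sucla2 (-0.93), Suclg1 (-0.77), Mdh2 (-0.71), Acadl (-0.65), Hadh (-0.94), Echs1 (-0.82) and Etfb (-0.96).

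The 12 members not called included several genes of long-chain oxidation. Cpt1a (0.08, SE 0.17), Cpt2 (-0.36, SE 0.18), Hadha (0.05, SE 0.15), Hadhb (-0.12, SE 0.18) and Acadvl (-0.20, SE 0.15) missed the threshold. So did Idh3b, Ogdh, Dlst, Sdha, Acadm, Acads and Acaa2, while Acadl and Slc25a20, which also serve long chains, were called lower. Cpt1c was the 1 member called higher on row 2, at 3.31, 3.32, 3.57 and 3.36 on row 1 and 4.06, 4.03, 3.92 and 3.65 on row 2 (log2 change 0.52, SE 0.16, limma adjusted p = 0.0258). Its call was lost without any 1 of the astrocyte controls 1 to 4 or astrocyte Klotho 3, under median scaling, with no filter and with the mean of its probes.

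The row difference was larger on slide 2 than on slide 3 in most members. Within slide 2 (2 arrays a row) 29 members were called lower and 1 higher, beside 31.3% and 29.7% of all features, with a median of -0.83, and within slide 3 0 were called, as were 0 of all features, with a median of -0.41 and 30 of 35 genes negative. The paired values on slides 2 and 3 were -1.85 and -1.04 for Sdhd, -2.01 and -1.02 for Sdhc, -1.37 and -0.69 for Idh3a, -1.51 and -0.86 for Decr1, -1.38 and -0.78 for Mdh1, and -1.41 and -0.69 for Etfa. By scanner file slide 2 holds the controls and slide 3 the Klotho arrays, so slide and treatment cannot be told apart, and the difference between slides is the same contrast as the Klotho change by row given above. It was tested as an interaction, with 33 of 35 members positive and a median of 0.45. No member (0) was called, 6 had an unadjusted p under 0.05, and of all features 0.0% were called higher, 0.00417% lower and 21.0% had an unadjusted p under 0.05.

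The size of the row difference depended on the scaling of the arrays. Quantile normalization left 10 lower and 5 higher calls and reduced the members' median relative to all features from -0.66 to -0.18. Median centring gave 29 lower and 0 higher calls while it moved the median of all features from -0.05 to -0.49. Calls over all features were 45.9% higher with the 75th percentile, 21.6% with the median and 36.7% after normexp background correction. Leaving out 1 array at a time left 15 to 27 lower calls. The sum of the astrocyte markers was 463 to 549 on row 1 and 333 to 442 on row 2, and that of the microglia markers 102 to 135 and 159 to 229. That of the oligodendrocyte lineage markers was 39.0 to 87.3 and 88.4 to 131, and that of the neuron markers 30.2 to 49.5 and 52.5 to 102. The part of these cells in the row difference was not tested.

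**Figure D4:**
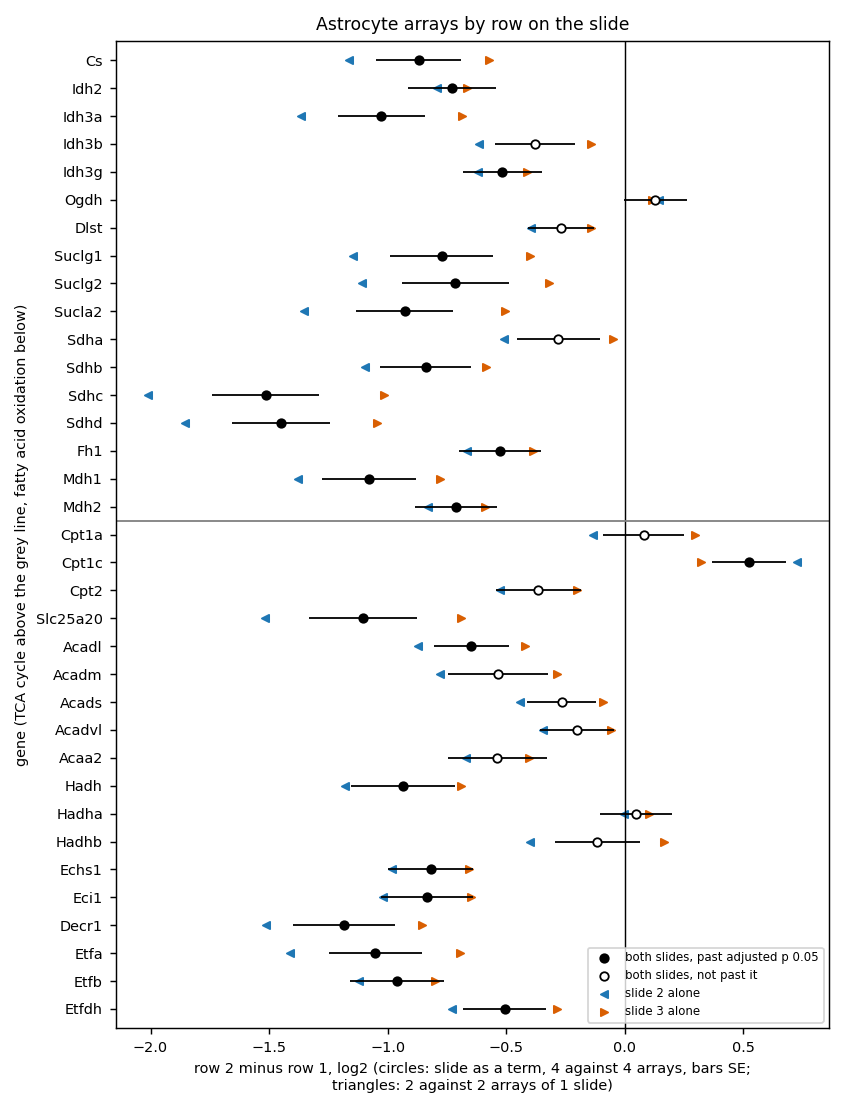
Change of each enzyme from array row 1 to array row 2 among astrocyte arrays in log2 units, with slide 2 and slide 3 drawn separately beside the value over both slides and its standard error. Most genes lie below 0 on both slides and further below on slide 2, while Cpt1c lies above 0.

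Among the neuron arrays replicate 1 stood apart in both treatments, and in opposite directions for the 2 pathways. Of the 18 fatty acid oxidation genes 16 were below the range of the other 3 arrays in controls and again with Klotho, by a median of -0.58 and -0.73, and 1 (Cpt1c) was above it in both. Of the 17 TCA genes 10 were above the range in both treatments and 3 (Idh2, Suclg2 and Sdhc) below. The mean level of the fatty acid genes was 1.82 on neuron control 1 against 2.29 to 2.50 on the other controls, and 1.61 against 2.33 to 2.36 with Klotho. Acads showed the widest gap, at -3.25 against -2.06 to -1.79 in controls and -3.33 against -1.75 to -1.63 with Klotho. The summed astrocyte markers on neuron control 1 were 142.7, the lowest of the control arrays, and on neuron Klotho 1 they were 111, the lowest of all 16. The same counts over all features were not made, so these do not show whether replicate 1 stood apart in these pathways more than elsewhere. Over all features compared, its deviations from the group means correlated at 0.778 between the treatments. Replicate 1 was picked out by its values, so no test is given, and what it shares with the markers was not tested.

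**Figure D5:**
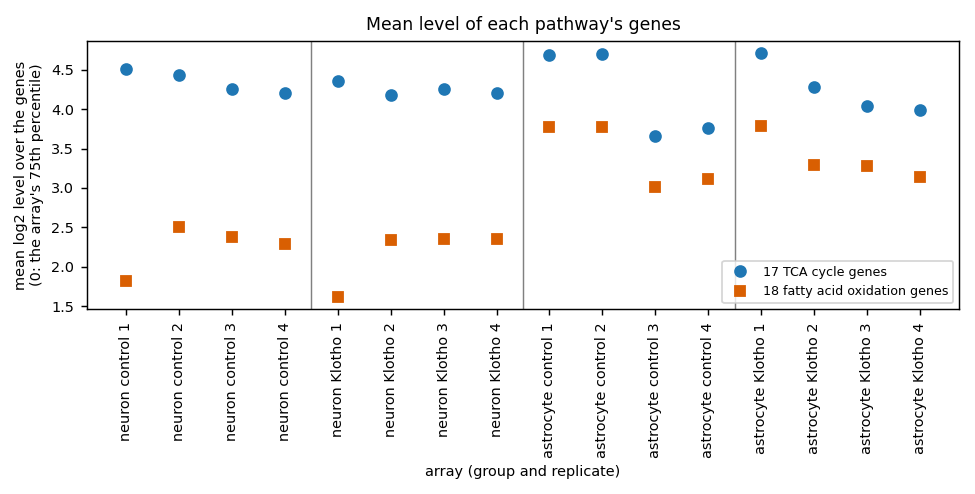
Mean level of the 17 TCA genes and of the 18 fatty acid oxidation genes on each of the 16 arrays, in log2 units relative to the array's 75th percentile. Neuron replicate 1 is low for fatty acid oxidation in both treatments, and for the TCA cycle astrocyte replicates 1 and 2 (row 1) lie at 4.28 to 4.71 and replicates 3 and 4 (row 2) at 3.66 to 4.04.

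Different probes of the same gene mostly gave the same direction. The members had 46 probes in all, with 9 genes represented by several. In control cultures the probes of Cpt1a differed between cell types by 2.00 and 2.08, those of Cpt1c by 1.17 and 1.10, those of Cpt2 by 2.45 and 2.63, those of Decr1 by 1.99 and 2.01, and those of Etfa by 1.15 and 1.35. Sdhc disagreed: its brightest probe differed by -0.23 in control and 0.15 in Klotho cultures, and its other probe by -0.61 and -0.66. Of 3 probes for Etfb 2 were near 0.17 and the dimmest was at -0.97, and of 3 probes for Ogdh the dimmest was at 0.87 and the others at 0.15 and 0.33. Statements on Sdhc, Etfb and Ogdh between cell types therefore hold for the brightest probe.

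Other genes of the same metabolism were measured as lists, whose counts in control cultures stand beside 22.3% of all features called higher, 30.9% called lower and a median of -0.22 over all features. Of 20 further TCA and anaplerotic genes 6 were called higher and 8 lower in astrocytes of the control cultures, and their median was also -0.22. Pcx, the pyruvate carboxylase that refills the cycle, was higher by 1.95 (SE 0.22). Acod1, which diverts aconitate to itaconate in activated macrophages, was above background on no neuron array and at least 39.9-fold higher in control astrocytes. Of 23 other mitochondrial fatty acid genes 10 were called higher and 4 lower (median 0.48), with Acacb, the carboxylase whose product malonyl-CoA inhibits Cpt1a, higher by 3.26 (SE 0.33). Acat1, the acetoacetyl-CoA thiolase of ketone body and isoleucine breakdown, was lower, at -2.97 (SE 0.21).

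Peroxisomal oxidation, which shortens very long and branched chains, had more higher than lower calls. Of 17 genes 8 were called higher in control astrocytes and 0 lower at adjusted p under 0.05 (12 of 17 had an unadjusted p under 0.05 in limma), with a median of 0.73. Acox2, an oxidase for branched-chain and bile acid intermediates, was higher by 6.38 (SE 0.36), Phyh, the phytanoyl-CoA hydroxylase, by 3.99 (SE 0.37) and Ehhadh, the bifunctional enzyme, by 3.54 (SE 0.18). Oxct1, the transferase of ketone body use, was lower, at -1.32 (SE 0.29).

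Of 21 regulators and target genes of these pathways 3 were called higher and 5 lower, both smaller shares than those of all features. Plin2, a lipid droplet coat protein, was higher by 3.75 (SE 0.31). Ucp2 and Ucp3 were called higher as well, with signals above background on 2 of 4 neuron control arrays each, so no fold is given. Esrrb, an orphan nuclear receptor, was lower, at -2.46 (SE 0.29). Between astrocyte rows the lists gave 8 lower calls of 20 (TCA and anaplerosis), 5 of 23 (other fatty acid genes), 4 of 17 (peroxisome), 4 of 5 (ketone bodies) and 5 of the 20 regulators tested. The higher calls of the same lists numbered 3, 2, 0, 0 and 2, and of all features 25.5% were called lower and 21.7% higher. Tfam, the factor that maintains mitochondrial DNA, was lower there, at -1.32 (SE 0.26). With Klotho 0 genes of these 5 lists were called in either cell type (limma). At an unadjusted p under 0.05 they numbered 1, 2, 2, 0 and 0 in neurons and 1, 0, 1, 0 and 1 in astrocytes, in the order of the lists.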

How the data were processed

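Total RNA (200 ng, Cy3) of 16 samples was measured on 1-colour Agilent arrays. Per the file headers the arrays were of design 028005, scanned with Feature Extraction 12.0.3.1 (protocol GE1_1200_Jun14, probe build NCBI37). Processed intensity values in the deposited scanner files were background-subtracted and detrended array by array by the authors' scanner software, and no step between arrays is recorded. The authors' deposited value table holds a score of unnamed unit, which matched the log2 processed intensity of 1 array, standardised to z, to within 0.005 in each column. In 10 of 16 columns that array was the sample's own, and in 6 it was another astrocyte sample's, and the deposit does not settle which is right. No column of per-sample values was left unused (0).

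From the files, outlier-flagged spots were dropped, spots of a probe averaged, and log2 intensity centred by subtracting the 75th percentile over non-control probes. Of 55681 probes 28331 (50.9%) were named through RefSeq accessions and a gene table of GRCm38.p6, and the brightest probe stood for a gene. Features well above background on all 4 arrays of a compared group were fitted across the whole table with limma 3.58.1 in R 4.3.3 (lmFit, eBayes), with Benjamini-Hochberg adjustment and a threshold of 0.05. The astrocyte array row was compared with slide as a term. The script was tested on simulated data: with 4 arrays a group a log2 change of 1 was found in 55.2% of changed features between neuron groups, 7.46% between cell types in control cultures and 20.9% between array rows, and a change of 2 in 93.9%, 59.1% and 69.7%. In the simulation only 66 or 67 features were changed at each size, with 25794 left unchanged between cell types. In the real control cultures 22.3% of features were called higher and 30.9% lower between cell types, and between rows 21.7% and 25.5%. The adjusted threshold is less strict where many features change, so the simulated rates need not hold for the cell types or the rows. Each group has 4 arrays, and this number limits the precision. No spot was saturated (0).

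Between treatments the deviations of same-numbered arrays from their group means correlated at 0.778, 0.175, 0.473 and 0.409 in neurons, for replicates 1 to 4. In astrocytes they correlated at 0.724, 0.181, 0.527 and 0.621. Same-numbered neuron arrays share a slide column, and same-numbered astrocyte arrays share both row and column. Pairs with unlike numbers were not compared, so a pairing of samples cannot be told apart from array position. The fit without the block is given, and the alternatives are in the closing section. The 35 members, the further gene lists, the marker lists and the comparisons were chosen with earlier results of these data known. Array-by-array values are given for the 6 called members with the largest change in each direction between cell types in control cultures, the 4 with the smallest p in each Klotho comparison and the 6 with the smallest p between array rows, and for Cpt2 with Klotho and Cpt1c between rows, which were chosen after their values were seen. Of the other lists up to 4 genes with the smallest p are named, and some of their results are not reported here. Of 24 other fatty acid genes 23 were measured.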

Additional observations from a re-analysis of the deposited data

Results flagged for a closer look

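Within each group of 4 arrays, the highest and the lowest value of every enzyme were compared with the rest. A value is listed where its gap to the nearest other array, as a share of the group's range, exceeded Dixon's 95% critical value for 4 values. Of 140 groups of 4 values (35 genes in 4 groups) 25 had such a value. At this limit chance alone picks out about 1 group in 20, and genes of the same array are not independent. The same count over all features was not made. The values below therefore do not show whether an array stood apart more in these enzymes than elsewhere.

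Of the 25 values 18 were from neuron Klotho 1. Among TCA genes they were Cs at 6.67, Ogdh at 4.42, Sdha at 4.81 and Sdhd at 4.85, of which Sdhd lay below the other 3 arrays and the rest above. In the carnitine shuttle they were Cpt1a at 0.80, Cpt2 at -0.49 and Slc25a20 at -1.09, all below, and Cpt1c at 2.90, above. Among the acyl-CoA dehydrogenases they were Acadl at 0.66, Acadm at 2.57 and Acads at -3.33, all below. Further values below the other arrays were Acaa2 at 4.15, Hadh at 0.79, Echs1 at 3.43, Eci1 at 1.45, Decr1 at 1.71, Etfa at 2.85 and Etfb at 3.53.

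On neuron control 1 the level of Dlst was 3.95, above the other controls, and that of Acadl 0.94, below them. On neuron control 2 that of Sdhd was 5.28, above the other controls. On astrocyte Klotho 1 the levels of Idh3b (3.34), Suclg1 (4.24), Fh1 (4.10) and Acaa2 (5.63) lay above the other Klotho arrays. What sets these arrays apart was not tested.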

How the results depend on the processing

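No member (0) was called by limma in the Klotho comparisons of neurons or astrocytes, or in their difference, under any alternative tried. The counts of higher calls between cell types stayed within 1.5 times their value. Lower calls in control cultures numbered 0 with median scaling or quantile normalization, 1 in the value table, 6 in one fit of all 16 arrays and 8 with all 8 against 8 arrays, and 1 to 6 with single arrays left out. In Klotho cultures they numbered 2 with median scaling, 2 without the filter on dim probes, 7 in the value table, 8 over arrays with the same treatment in both sources, 8 with 8 against 8 arrays, 10 within array row 2 and 2 to 9 with single arrays left out.

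Between array rows, higher calls numbered 0 with median scaling, without the filter, with the mean of all probes of a gene and within slide 3, 5 after quantile normalization, and 0 to 1 with single arrays left out. Lower calls numbered 10 after quantile normalization, 14 in the value table, 0 within slide 3 and 15 to 27 with single arrays left out. Among members with a call, signs turned for Idh3g between cell types (0.43) and between rows (0.046), for Acadvl (0.38) and Hadhb (0.47) between rows, all after quantile normalization, and for Sdhc (0.77) and Echs1 (0.42) in control cultures within array row 1. Counting members without a call, quantile normalization turned 8 between rows and 4 in each comparison of cell types, row 1 alone turned 5 in control cultures, and the value table turned 19 or 20 in the Klotho comparisons. The cause was not tested.

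With the replicate block 0 members were called with Klotho in either cell type. Between cell types the numbers are shared in name only (correlations of -0.151 to 0.263), and the block gave 14 higher and 3 lower calls in control cultures and 12 and 3 in Klotho cultures. The scanner files hold no mean signal column, so normexp used the median signal. The comparisons within a row or slide, with 8 against 8 arrays and over arrays with the same treatment in both sources were partly chosen after seeing the data.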
